A study of Carassius gibelio with 4 samples.

Results

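The 60 gene IDs described here stood higher in liver on a rapeseed meal diet than on a fishmeal diet in each of 2 strains of gibel carp (Carassius gibelio), a farmed cyprinid. They were chosen by their levels, out of 56011 IDs: their mean over the libraries was 100 to under 1000, which 774 IDs met, and their log2(value + 1) was larger by 1 or more on rapeseed in strain A and again in strain F. The same diet pairs that chose the IDs give their folds, so the folds below are a description and carry no test. Total RNA of liver taken 8 hours after the last meal was sequenced in 4 libraries, called by their labels FA (strain A, fishmeal), RA (strain A, rapeseed meal), FF (strain F, fishmeal) and RF (strain F, rapeseed meal). Each group is 1 library, the labels give neither the age of the fish nor how many were pooled, and so no value below has a replicate or an error. Levels are given as FPKM, fragments per kilobase of transcript per fixed number of mapped fragments, on the scale the authors deposited. This unit was read from the values, as the sources used here do not state it.

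Rapeseed meal is a plant protein source used to replace fishmeal in feeds for cyprinids. It differs from fishmeal in its amino acids and lipids and carries glucosinolates and phytate, and the liver is the organ that handles absorbed nutrients and detoxifies plant compounds. In carps the liver is a diffuse organ in which exocrine pancreas lies among the hepatocytes. In such bulk tissue, a change in the number of cells of a type and a change of RNA per cell cannot be told apart. Gibel carp is polyploid and can reproduce by gynogenesis, in which sperm starts development without adding its genome. Polyploid genomes carry near-identical gene copies between which reads may be split.

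The IDs are those of assembled sequences, a c number followed by a g number. The files give no gene names for them and 0 matched the gene table, so no function is given for any of them, the label "liver" could not be checked against marker genes and no sequence is shown. IDs with the same c number are treated as 1 component of the assembly, sequences that were joined when the reads were put together. Their reads may be shared, so the split of a level within a component is uncertain.

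The libraries differed in how many IDs they listed above 0. FF had 19015 IDs above 0, against 44906 to 47839 in FA, RA and RF, and its lowest value above 0 was 0.261 FPKM, against 0.011 to 0.027. FF is called the shallow library below for these values alone, since the depth of the libraries is not given. The deposited values also carry 1 multiplying factor per library, which was read from the spacing of low values and was 0.993 in FA, 1.34 in RA, 0.705 in FF and 1.07 in RF. These factors add 0.43 (strain A) and 0.60 (strain F) to a log2 fold between the diets where both values are well above 0. Over the 774 IDs of the level class the median log2 fold of RA over FA was 0.33 and that of RF over FF was 0.68 as deposited, and they were -0.09 and 0.08 with the factors divided out.

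Of the 774 IDs, 113 (14.6%) were 2-fold or more higher in RA than FA, 204 (26.4%) were so in RF over FF, and 60 (7.75%) in both pairs. The opposite, a lower level of that size on rapeseed in each strain, was found for 5 IDs (0.646%). These counts are on the deposited scale, where the factors favour rapeseed in both strains. In strain A, 113 IDs were 2-fold higher and 19 lower as deposited, and 70 and 39 with the factors divided out. The median log2 fold of the 60 in strain A was 2.01, with a range of 1.01 to 5.75. In strain F it was 1.81, and 1.71 over the 54 IDs that were above 0 in FF. The median of the 60 was 104 FPKM in FA, 513 in RA, 74.8 in FF and 271 in RF. For the whole level class the medians were 187, 242, 142 and 220 FPKM in the same order.

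A share of a library's summed level does not depend on its factor. The 60 IDs held 0.702% of the summed level of FA and 2.56% of that of RA, a ratio of 3.64. They held 0.784% of FF and 1.79% of RF, a ratio of 2.29. On fishmeal the share was similar in the strains, and on rapeseed it was larger in strain A. These shares sum the values that the rule used. The difference on rapeseed was not spread evenly over the 60. The IDs grouped further on by order of libraries held a large part of the share of RA and a small part of RF's. That group was chosen for RA above RF and a large fold in strain A, so its shares follow in part from the choice.

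**Figure D1:**
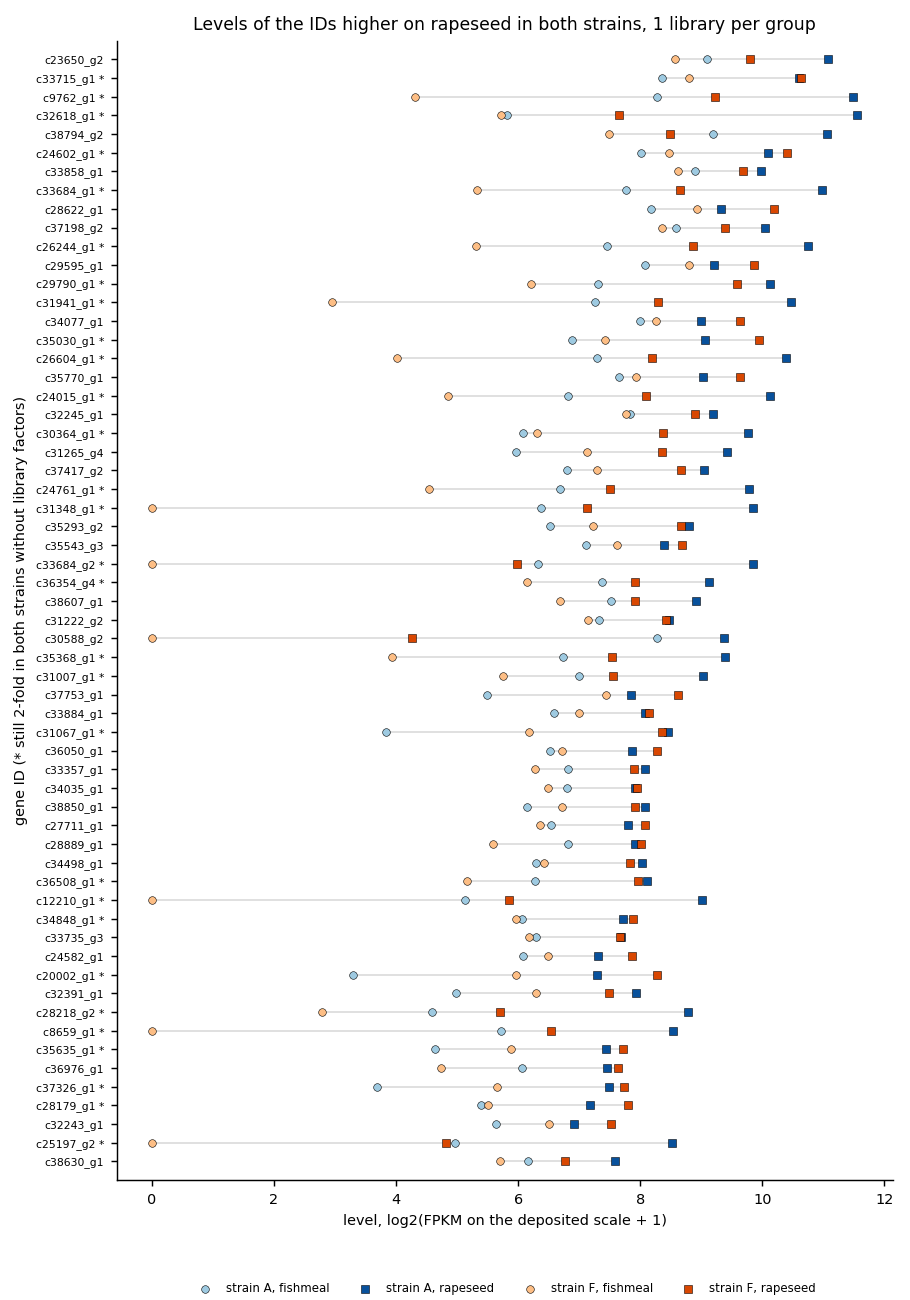
Level of each of the 60 IDs in the 4 libraries, as log2(FPKM + 1), with 1 library per group and IDs ordered by mean level; circles are fishmeal, squares rapeseed, blue strain A and orange strain F. In 56 of the 60 rows both squares lie to the right of both circles, and 6 circles of strain F lie at 0.

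The rule fixes the order of the diets within a strain but not between strains. The counts of orders below are thus in part set by the rule and describe the 60 alone. In 56 of the 60 IDs both rapeseed libraries stood above both fishmeal libraries, and with the library factors divided out this held for 49. As deposited, the lower rapeseed library was still 2-fold or more above the higher fishmeal library in 34 IDs. The 4 exceptions, which had RA highest, then FA, RF and FF, were c38794_g2, c33684_g2, c30588_g2 and c25197_g2. The commonest order as deposited, in 26 IDs, was RA, RF, FA, FF from high to low. Of the 774 IDs 22.7% had that order, but most of them were not held to the rule, so the shares are not alike. A further 17 had the order RF, RA, FF, FA. With the factors divided out, RF, RA, FF, FA was the commonest order, in 21 IDs, and RA, RF, FA, FF was found in 17. Which order is commonest thus depended on the scale.

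After division by the library factors, 29 of the 60 kept a difference of 2-fold or more in both strains and 31 did not. On that scale 29 of the 774 IDs (3.75%) passed the rule. The factors add to the fold in both strains, so dividing them out sets a stricter limit on the same folds. The 29 thus had to come from the 60, and folds larger than those of the 31 follow from that limit. As deposited, the 29 had median log2 folds of 3.20 (strain A) and 2.92 (strain F, or 2.42 over the 24 above 0 in FF), and the 31 had medians of 1.38 and 1.26 (1.25 over the 30 above 0 in FF). Their levels were similar, with median mean levels of 265 FPKM for the 29 and 247 for the 31.

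**Figure D2:**
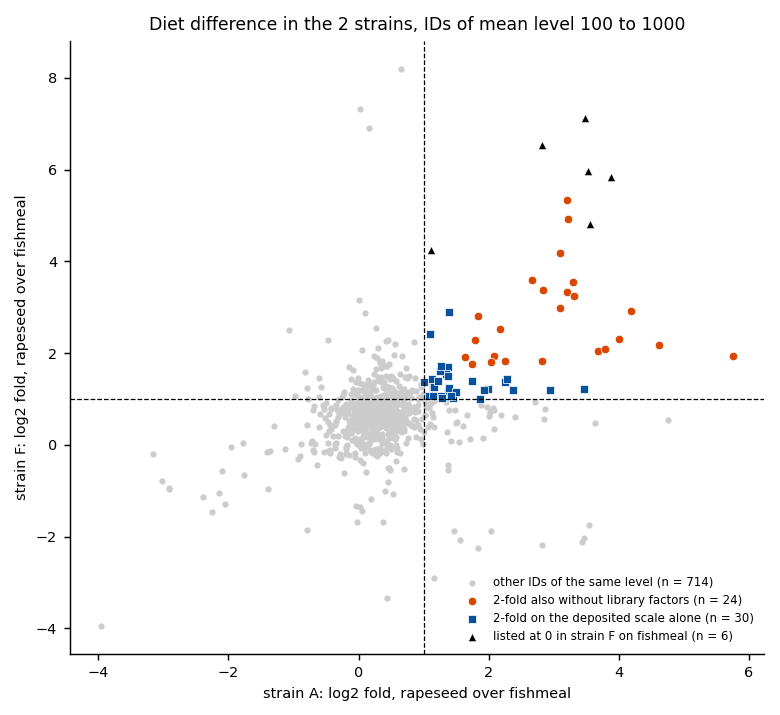
Log2 fold between the diets, rapeseed over fishmeal, for strain A (x) and strain F (y) in the 774 IDs of mean level 100 to under 1000, from log2(FPKM + 1); dashed lines mark the 2-fold limit. Of the 60 IDs, 24 orange circles are 2-fold also without library factors and 30 blue squares on the deposited scale alone. The 6 black triangles are listed at 0 in FF, where the height depends on the pseudocount. Of the 6, 5 are 2-fold also without the factors, which hardly alter the strain F fold of these IDs.

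The IDs c31348_g1, c33684_g2, c12210_g1, c8659_g1, c25197_g2 and c30588_g2 were listed at 0 in FF. They were 6 of the 60 (10%), and the whole level class held 11 such IDs (1.42%). An ID at 0 in FF passes the limit in strain F once RF is 1 FPKM or more. The rule thus favours such IDs, and the larger share among the 60 is no separate result. No fold is given for them in strain F. c31348_g1 stood at 81.9 FPKM in FA, 919 in RA, 0 in FF and 140 in RF. c12210_g1 stood at 34.0 FPKM in FA, 515 in RA, 0 in FF and 56.7 in RF. c8659_g1 stood at 51.7 FPKM in FA, 369 in RA, 0 in FF and 91.6 in RF.

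In each of c31348_g1, c12210_g1 and c8659_g1, RA was by far the highest library and RF lay above FA. c33684_g2 had 79.3 FPKM in FA, 919 in RA and 62.0 in RF. c25197_g2 had 30.1 FPKM in FA, 366 in RA and 27.1 in RF. In c33684_g2 and c25197_g2 the level in RF thus lay just under that in FA.

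c30588_g2 differed from the other 5. It stood at 307 FPKM in FA, 664 in RA, 0 in FF and 18.1 in RF. Its log2 fold in strain A was 1.11, and 0.68 without the factors, so that it dropped out while the other 5 stayed 2-fold. With FF at 0 the factors hardly alter the fold in strain F, so for these 6 IDs only strain A decided this. c30588_g2 also stood apart between the strains. On rapeseed it had the largest strain difference of the 60, with RA 36.6 times as high as RF. FF is the shallow library, and the part of its depth in these zeros was not tested.

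The strains were compared next. The rule sets no limit on the strain difference, but it used the same libraries. A low FF or a high RA helps an ID pass the rule. The numbers below can therefore depart from the level class through the choice of the IDs alone. The 6 IDs listed at 0 in FF are among those lower in strain F on each diet. On rapeseed, 22 of the 60 (36.7%) were 2-fold or more lower in RF than RA, against 78 of the 774 IDs (10.1%), and 0 were higher, against 44 (5.68%). With the factors divided out, 19 were lower, against 5.81% of the level class, and 4 higher, against 8.66%. On fishmeal 22 were lower in FF than FA, against 19.5% of the level class, and 7 higher, against 6.2%. With the factors divided out those numbers were 16, against 8.27%, and 13, against 11.5%. The median log2 fold of RF over RA was -0.25 over the 60 and -0.16 over the 774 as deposited, and 0.07 and 0.16 without the factors, so its sign depended on the scale.

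**Figure D3:**
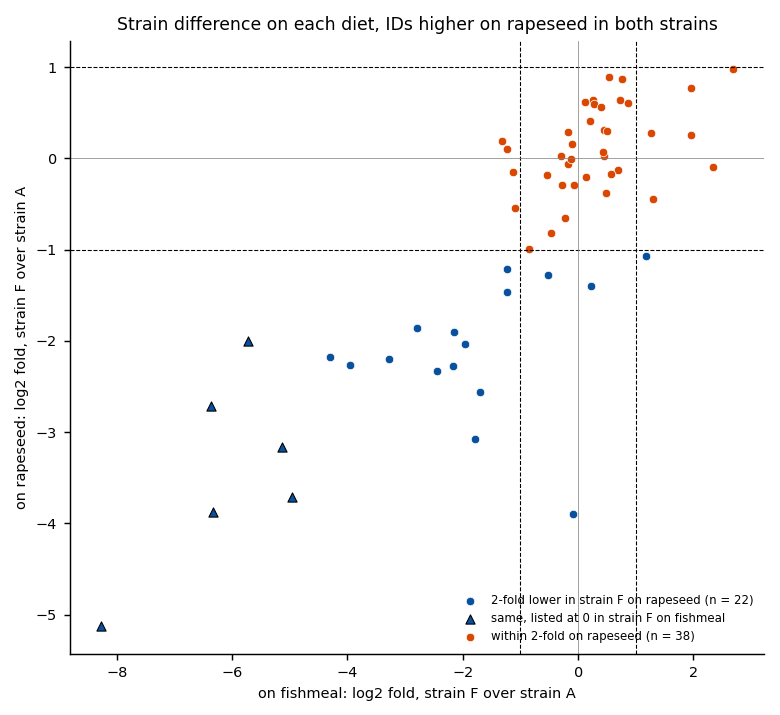
Log2 fold of strain F over strain A, on fishmeal (x, FF over FA) and on rapeseed (y, RF over RA), for the 60 IDs, from log2(FPKM + 1); dashed lines mark 2-fold. Blue marks 22 IDs 2-fold lower in RF than RA, of which 6 (triangles) are listed at 0 in FF and have x values set by the pseudocount, and orange marks 38 IDs within 2-fold on rapeseed.

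Sorted by the 2-fold limit on each diet, the largest class held 28 IDs that were within 2-fold between the strains on both diets, and 22 of them were in the same class without the factors. Their median log2 folds between the diets were 1.38 for either strain, and 5 of the 28 stayed 2-fold without the factors. c33715_g1 stood at 326 FPKM in FA, 1556 in RA, 444 in FF and 1587 in RF. Its log2 folds were 2.25 (strain A) and 1.84 (strain F), and on rapeseed the strains were nearly equal for it. c24602_g1 stood at 258 FPKM in FA, 1090 in RA, 354 in FF and 1353 in RF. c35030_g1 stood at 117 FPKM in FA, 533 in RA, 170 in FF and 991 in RF. Both c24602_g1 and c35030_g1, named after their values were seen, were higher in strain F on either diet, by less than 2-fold as deposited. Without the factors c35030_g1 was past 2-fold, with log2 folds of FF over FA of 1.03 and of RF over RA of 1.22.

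Near the limit, c34077_g1 stood at 253 FPKM in FA, 510 in RA, 304 in FF and 794 in RF. Its log2 fold in strain A was 1.01 as deposited and 0.58 without the factors. Among the IDs of lowest mean level, c38630_g1 stood at 70.8 FPKM in FA, 191 in RA, 51.0 in FF and 108 in RF. c32243_g1 stood at 48.6 FPKM in FA, 120 in RA, 89.6 in FF and 183 in RF. The log2 folds of RF over FF were 1.07 for c38630_g1 and 1.03 for c32243_g1. Neither stayed 2-fold without the factors.

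Another class held 18 IDs that were 2-fold or more lower in strain F on both diets, the 6 listed at 0 included. Without the factors 16 were so, all of them among the 18. The share of the whole level class that falls in this class, or in the other classes, is not given. A low FF and a high RA also help an ID pass the rule. The count of 18 thus cannot show an excess over the level class. Here the median log2 folds between the diets were 3.21 (strain A) and 3.89 (strain F, or 3.29 over the 12 above 0 in FF), and 16 of the 18 stayed 2-fold without the factors. c9762_g1 was the most abundant of them by mean level, at 308 FPKM in FA, 2878 in RA, 18.8 in FF and 597 in RF. Its log2 folds were 3.22 (strain A) and 4.92 (strain F). c33684_g1 stood at 218 FPKM in FA, 2023 in RA, 39.0 in FF and 402 in RF, with log2 folds of 3.21 and 3.33. c26244_g1 stood at 175 FPKM in FA, 1727 in RA, 38.7 in FF and 463 in RF, with log2 folds of 3.30 and 3.54.

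In c9762_g1, c33684_g1 and c26244_g1 the libraries came in 1 order, RA, RF, FA, FF from high to low, with RA alone above 1000 FPKM. RA highest and FF lowest follow from the class and the rule, which leave only the order of RF and FA free. c24015_g1 stood at 111 FPKM in FA, 1118 in RA, 27.8 in FF and 273 in RF. c26604_g1 stood at 156 FPKM in FA, 1342 in RA, 15.1 in FF and 292 in RF. c31941_g1 stood at 153 FPKM in FA, 1415 in RA, 6.75 in FF and 313 in RF. c24015_g1, c26604_g1 and c31941_g1 followed the same order, and c31941_g1 had the lowest level of these in FF, the shallow library.

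Within the 60, 14 IDs combined the order RA, RF, FA, FF with a log2 fold of 2.5 or more in strain A, a grouping made after the values were seen. Of the 774 IDs, 15 met both conditions, and 14 of these were among the 60. All 14 stayed 2-fold without the factors, and 13 kept the order of libraries. In strain A the limit of 2.5 fixed the former, as the factors add 0.43 there. For those listed at 0 in FF, the factors hardly alter the fold in strain F. Over the 14 the ratio of RA to FA had a median of 9.32. It lay between 6.40 (c35368_g1) and 19.0 (c28218_g2) in 13 of them, with c32618_g1 apart at 54.8. The ratio of RA to RF had a median of 4.71, from 1.46 (c29790_g1) to 15.0 (c32618_g1). The ratio of FA to FF, over the 11 of them above 0 in FF, had a median of 4.63 and ran from 1.06 to 22.6. Together the 14 held 0.142% of the summed level of FA, 1.11% of RA, 0.0351% of FF and 0.311% of RF. The choice of the 14 by order and fold favours a high share in RA.

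c38794_g2 also stood lower in strain F on both diets but had a small fold there. It stood at 581 FPKM in FA, 2126 in RA, 178 in FF and 360 in RF. Its log2 folds were 1.87 (strain A) and 1.01 (strain F), and the latter was 0.41 without the factors. Its level in RF was below that in FA.

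A smaller class held 7 IDs that were 2-fold or more higher in FF than FA, and 6 of these were within 2-fold on rapeseed. c31067_g1 stood at 13.2 FPKM in FA, 350 in RA, 71.1 in FF and 328 in RF, with log2 folds between the diets of 4.62 (strain A) and 2.19 (strain F). c37326_g1 stood at 11.9 FPKM in FA, 178 in RA, 49.3 in FF and 213 in RF. c32391_g1 stood at 30.7 FPKM in FA, 243 in RA, 76.9 in FF and 178 in RF.

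FA has to be the lowest library in this class, through the class limit and the rule together. For those within 2-fold on rapeseed, a larger fold in strain A follows as well. Among c31067_g1, c37326_g1 and c32391_g1 the gap was smallest in c32391_g1, where FF was 2.51 times as high as FA. c20002_g1, c35635_g1 and c37753_g1, named after their values were seen, completed the 6. c20002_g1 had the lowest level of all 60 in FA, 8.78 FPKM, against 156 in RA, 61.8 in FF and 309 in RF. Between the diets, 4 of the 6 stayed 2-fold in both strains without the factors. Between the strains, 4 of the 6 stayed in the class, while c20002_g1 and c37753_g1 were then 2-fold higher in RF than RA, with log2 folds of 1.30 and 1.09. The remaining ID of the 7, c31265_g4, is given with its component further on.

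The last 7 IDs were 2-fold apart between strains on 1 diet. On rapeseed 3 were lower in strain F, and 2 of the 3 stayed in that class without the factors. c32618_g1 had the largest fold of the 60 in strain A and stood at 55.1 FPKM in FA, 3015 in RA, 51.9 in FF and 201 in RF, with log2 folds of 5.75 (strain A) and 1.93 (strain F). On fishmeal its strains were nearly equal, and RA was 15.0 times as high as RF. c23650_g2, the ID of highest mean level at 992 FPKM, stood at 544 FPKM in FA, 2154 in RA, 380 in FF and 889 in RF. Its log2 fold of RF over FF was 1.23, and 0.63 without the factors. Its log2 fold of RF over RA was -1.28 as deposited and -0.95 without the factors. c30364_g1 stood at 66.8 FPKM in FA, 868 in RA, 78.6 in FF and 329 in RF. On fishmeal c29790_g1, c36508_g1, c28889_g1 and c36976_g1 were lower in strain F, and none of them was 2-fold lower once the factors were divided out. c30364_g1 and these 4 were named after their values were seen.

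Over the 54 IDs above 0 in FF, the fold was the larger one in strain A for 30 and in strain F for 24, and without the factors for 36 and 18. In 30 IDs both log2 folds lay within 0.5 of each other. A fold of 4 or more in both strains was seen in 20 IDs, 5 of them listed at 0 in FF. For those 5 the size in strain F depends on the pseudocount, and with a pseudocount of 10 c25197_g2 fell below 4-fold there. A further 10 IDs had that size in strain A alone, and 4 of those above 0 in FF had it in strain F alone. Whether the strains' responses differ cannot be tested with 1 library per group.

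Component mates of the 60 are the other IDs in their components, outside the 60. Mates within the level class failed the fold limit of the rule, and the rule did not judge the folds of the rest. The 60 IDs lay in 59 components, and 24 of them (40.0%) had at least 1 other ID in their component, against 50.6% of the 774 IDs of the level class and 41.8% of all IDs. c33684_g1 and c33684_g2 shared a component, and no other pair of the 60 did. Their ratios of RA to FA were 9.28 and 11.6. In strain F, c33684_g1 stood at 39.0 FPKM in FF and 402 in RF, and c33684_g2 at 0 and 62.0 FPKM.

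There were 42 other IDs in these components, and 36 of them had a mean level of 1 or more. Of the 36, 11 (30.6%) were 2-fold or more higher on rapeseed in each strain, against 4.56% of all 35517 IDs of that level, and 7 were so without the factors, against 2.86%. At mean level 10 to under 100 it was 4 of 9, against 2.6%, and 2 of 9 without the factors. At 1 to under 10 it was 7 of 21, against 4.87%, and 5 of 21 without the factors. The shares of all IDs at these levels without the factors are not given. Of the 11, 9 were listed at 0 in FF, the shallow library, and of all 36 it was 16. At level 100 to under 1000 there were 6, and 0 of these could pass, since an ID that did would be one of the 60. Whether reads shared within a component tie its IDs together was not tested.

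**Figure D4:**
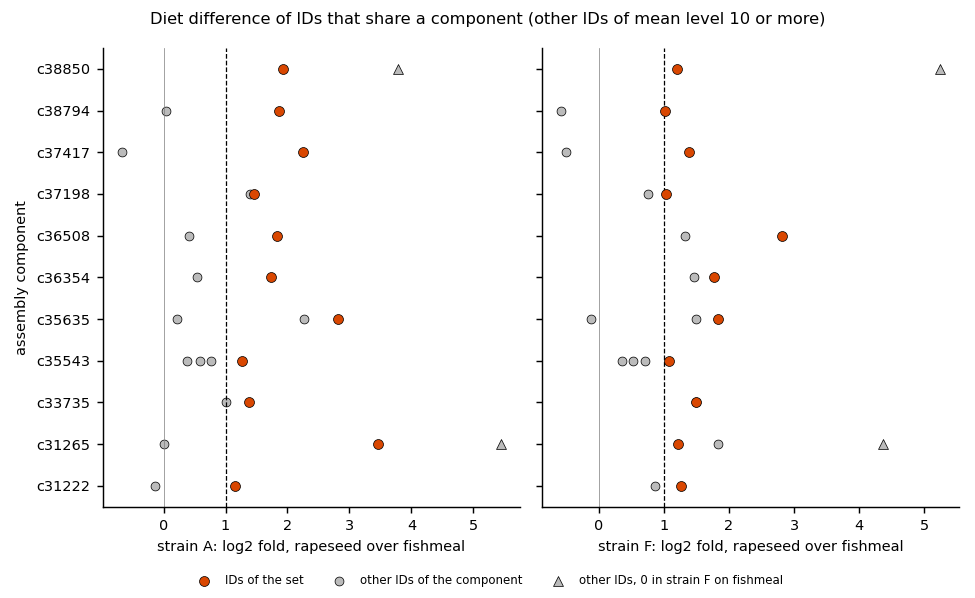
Log2 fold between the diets, rapeseed over fishmeal, for strain A (left) and strain F (right) in 11 components, from log2(FPKM + 1): orange, the IDs described here; grey, the other IDs of the component with a mean level of 10 or more, as triangles where listed at 0 in FF. Dashed lines mark 2-fold; in strain A 5 of the 15 grey points reach it and in strain F 7, and the grey point of c31265 at 0 in strain A was listed at 0 in FA and RA.

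In component c31265, mates differed by strain. c31265_g4, one of the 60, stood at 61.4 FPKM in FA, 687 in RA, 140 in FF and 327 in RF. c31265_g3 stood at 0.913 FPKM in FA, 82.5 in RA, 0 in FF and 19.5 in RF. c31265_g2 was listed at 0 in FA and RA, at 19.9 FPKM in FF and at 73.6 in RF. The component thus had an ID above 0 in strain F alone beside others that were highest in RA.

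In c38850 the strains were close for 1 ID and far apart for its mate. c38850_g1, one of the 60, stood at 69.8 FPKM in FA, 269 in RA, 104 in FF and 240 in RF, with the strains close on rapeseed. c38850_g2 stood at 16.6 FPKM in FA, 241 in RA, 0 in FF and 37.0 in RF, so that RA stood far above the rest.

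In c35635, the most abundant ID showed no 2-fold difference between diets. This was c35635_g2, at 737 FPKM in FA, 860 in RA, 583 in FF and 539 in RF. Its mean level lay in the level class, so passing in both strains would have made it one of the 60. c35635_g1, one of the 60, stood at 23.8 FPKM in FA, 173 in RA, 58.1 in FF and 209 in RF. c35635_g4 stood at 2.98 FPKM in FA, 18.1 in RA, 11.0 in FF and 32.8 in RF, in the same order of libraries as c35635_g1.

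c33735_g3, one of the 60, stood at 77.6 FPKM in FA, 204 in RA, 71.1 in FF and 202 in RF. Its mate c33735_g2 stood at 53.3 FPKM in FA, 109 in RA, 30.4 in FF and 87.3 in RF. c33735_g2, c35635_g4, c31265_g3 and c38850_g2 were the 4 component mates of level 10 to under 100 that passed the 2-fold limit in each strain as deposited. Without the factors c31265_g3 and c38850_g2 passed, and c33735_g2 (0.59 for RA over FA and 0.91 for RF over FF, as log2 folds) and c35635_g4 (0.92 for RF over FF) did not.

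Other mates did not share the diet difference in both strains. For c36354_g1, c37198_g3, c35543_g1, c35543_g4 and c35543_g5 this was fixed by the choice of the 60. Their mean levels lay in the level class, so passing in both strains would have made them members. c36354_g1 and c36508_g3 passed 2-fold in strain F alone, with log2 folds of 1.46 and 1.32. c37198_g3 did so in strain A alone, with 1.40. None of these passed without the factors. c38794_g4 and c31222_g3 were within 2-fold in each strain as deposited. Without the factors c38794_g4 was 2-fold lower on rapeseed in strain F (-1.17). c37417_g2, one of the 60, stood at 110 FPKM in FA, 526 in RA, 155 in FF and 405 in RF. Its mate c37417_g4 was lower on rapeseed in each strain, at 76.7 FPKM in FA, 47.7 in RA, 26.7 in FF and 18.5 in RF. The difference was less than 2-fold as deposited and over 2-fold in each strain without the factors, with log2 folds of -1.09 in both. c35543_g3, one of the 60, stood at 138 FPKM in FA, 334 in RA, 195 in FF and 412 in RF. Its mates c35543_g1, c35543_g4 and c35543_g5 stood within 2-fold between the diets, with log2 folds of 0.35 to 0.77 as deposited. Without the factors the sign turned for c35543_g1 (-0.05 for RA over FA and -0.07 for RF over FF) and, in strain F, for c35543_g5 (-0.25).

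The limits of the rule cut through a continuous range. Just inside the fold limit were c34077_g1 and c38794_g2, whose smaller log2 fold was 1.01, and c32243_g1 with 1.03. Just outside were c26264_g1 and c31415_g2, each at 0.99 in strain A, and c30269_g1 at 0.99 in strain F. c26264_g1 stood at 77.9 FPKM in FA, 156 in RA, 115 in FF and 234 in RF. By level, c31153_g1 at a mean of 91.1 FPKM and c36886_g3 at 82.5 lay just under the window, and c35492_g5 at 1082 and c32140_g1 at 1648 just above it.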

How the data were processed

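Liver RNA of 2 strains on 2 diets was measured in 4 libraries. The values deposited by the authors are, as read from the values, FPKM multiplied by 1 factor per library. Bowtie 1.0.1 and RSEM 1.2.17 are named, per the submitters' processing notes; the reference and the unit are not given in the sources used here. Factors were read from values under 3. These lay within 0.0006 of a number of 2 decimals times the factor (100% in each library). The largest multiplier with a share close to the best was taken and then refined. The product of the factors was 1.00. Folds are differences of log2(value + 1), which understate changes of low IDs, and depth is unknown. With 1 library per group, differences follow a fixed rule of size, 2-fold, with no p-value. The members and lists were chosen with earlier results of these data known.

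Named IDs are, by rule, those listed at 0 in FF and the 8 largest by the smaller fold. They include the 5 highest and 3 lowest by mean level, those at the limits, and the 5 most different between strains in each direction. Also named by rule are the 5 lowest in RF against RA, component mates of level 10 or more, and the 10 largest without factors. Others are marked as named later. c38850_g1, c33735_g3, c37417_g2 and c35543_g3 were not named by rule and are given beside mates that were. Marker lists could not be applied to IDs without names. Alternatives were other pseudocounts, scales, level windows and fold limits. The fold and factor steps were tested on simulated data. Python 3.11.15, numpy 2.4.6, pandas 2.3.3 and matplotlib 3.10.9 were used.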

Additional observations from a re-analysis of the deposited data

Results flagged for a closer look

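c31265_g4 differed between the strains in opposite directions on the 2 diets. On fishmeal it stood at 140 FPKM in FF against 61.4 in FA, and on rapeseed at 327 FPKM in RF against 687 in RA. The log2 fold of strain F over strain A on rapeseed minus that on fishmeal was -2.24. With 1 library per group the difference was not tested. Without the library factors its log2 fold of RF over RA was -0.75 and so within 2-fold.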

How the results depend on the processing

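The number of IDs stood at 60 as deposited, at 61 and 56 with pseudocounts of 0.1 and 10, at 69 with no upper level bound and at 57 with the mean taken without FF. It was 29 with the library factors divided out, 28 with the level window then applied again, and 29 with libraries scaled by their median over IDs of level 1000 or more. It was 94 for levels from 50 and 35 for levels from 200, and 145 at a limit of 1.5-fold and 20 at 4-fold. Those listed at 0 in FF numbered 3 for levels from 200. Component mates higher in each strain went from 11 to 7 without the factors and to 4 at level 10 or more. IDs 2-fold higher in RF than RA went from 0 to 4 without the factors. Of 113 differences of 2-fold or more in 45 IDs named by rule, 27 fell below 2-fold without the factors and 8 with a pseudocount of 10, and none changed sign under these or a pseudocount of 0.1. No paired analysis was possible because each group is 1 library. The shallow FF library enters every fold in strain F.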

Other observations

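IDs outside the level window had the order RA, RF, FA, FF from high to low together with a log2 fold of 2.5 or more in strain A. There were 4 such IDs among the 183 at mean level 1000 or more and 15 among the 5874 at 10 to under 100. The 4 were c31047_g1, c31047_g2, c26790_g1 and c32213_g1, chosen after their values were seen. c31047_g1 stood at 2222 FPKM in FA, 22253 in RA, 294 in FF and 4543 in RF. c31047_g2, of the same component, stood at 749 FPKM in FA, 6422 in RA, 46.9 in FF and 1319 in RF. c26790_g1 stood at 518 FPKM in FA, 5911 in RA, 69.9 in FF and 1078 in RF. c32213_g1 stood at 444 FPKM in FA, 5498 in RA, 391 in FF and 1063 in RF, so FF was near FA for it. Of the 15 of lower level, 9 were listed at 0 in FF.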
